A study of Mus musculus with 9 samples.

Results

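A set of 8 genes linked in people to inherited corneal dystrophies or building Descemet's membrane were followed across 9 mouse RNA-seq libraries: Col8a1, Col8a2, Slc4a11, Tcf4, Loxhd1, Agbl1, Kank4 and Tgfbi. They were taken by name, before any filter, as 8 of the 56481 gene symbols in the deposited count table. The libraries fall into 3 groups of 3. In iCEC, mouse neural crest cells had been converted in culture with 5 µM SB431542, which blocks type I receptors of TGF-β, in medium with 5% knockout serum replacement renewed every 2 days, with clusters seen by day 4 and colonies characterised on day 12. The pCEC group holds cells labelled as primary corneal endothelium, without a stated animal age, and pNCC holds primary neural crest cells of E13.5 mouse embryos; both were kept in medium with 10% fetal bovine serum. The labels name no strain, and leave unstated whether replicates are separate animals or cultures, so the p-values reflect spread among the libraries, which may be technical. The comparisons ask how the induced and the primary cells each differed from the crest cells, and how the induced cells differed from the primary ones.

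The corneal endothelium is a monolayer lining the back of the cornea that pumps water and ions out of the stroma, and it arises in large part from the neural crest. It lays down Descemet's membrane, a thick basement membrane whose outer part is a lattice of type VIII collagen built from the chains of Col8a1 and Col8a2. In Fuchs endothelial dystrophy this membrane thickens and cells are lost. Human COL8A2, SLC4A11, TCF4, LOXHD1, AGBL1 and KANK4 have all been linked to that disease, by family mutations or by association, whereas human TGFBI mutations deposit protein in the stroma.

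Total counts ran from 27389292 to 47967113 per library, and 3 counts, used here as the detection floor, amounted to 0.0615 to 0.126 CPM (counts scaled to a common library size by TMM over the 9 libraries). The labels give polyA RNA for all libraries except pCEC 2 and pCEC 3, which are labelled total RNA. Markers of the corneal surface epithelium (14 genes) summed to 17633 to 25463 CPM in iCEC, 66800 to 94873 CPM in pCEC and 95.6 to 163 CPM in pNCC; the corneal keratin Krt12 averaged 11087 ± 1943 CPM in pCEC (SD, n = 3), had 1 count in iCEC and was at 0 in pNCC. Markers of corneal endothelium (18 genes) summed to 2661 to 3227 CPM in iCEC, 1674 to 2264 CPM in pCEC and 1481 to 1615 CPM in pNCC. Markers of keratocytes and stromal fibroblasts (10 genes) summed to 116 to 426 CPM in iCEC, 1316 to 10874 CPM in pCEC and 24603 to 33198 CPM in pNCC. Most of the pNCC sum was Col1a1 and Col1a2, at 13797 ± 2027 and 10866 ± 2438 CPM. Kera, on the same list, was highest in pCEC, at 328 ± 241 CPM against 0.644 ± 0.690 CPM in pNCC and 0 in iCEC. By edgeR, 9 of the list were tested in pCEC against pNCC, with 2 higher, 5 lower and 2 that did not pass. Values labelled pCEC below are thus those of libraries rich in surface epithelium transcripts. iCEC also had a high sum of these markers: its lowest, 17633 CPM, lay far above the highest in pNCC, 163 CPM. Krt14 and Krt5 had the highest means of the list in iCEC, at 7307 ± 1211 and 6114 ± 3030 CPM. Pax6 averaged 0.299 ± 0.387 CPM in iCEC against 895 ± 73.3 CPM in pCEC, and Aldh3a1 98.8 ± 56.0 against 26723 ± 4105 CPM. By edgeR, 6 of the 14 were lower in iCEC than in pCEC, 1 was higher and 7 did not pass. Over all genes, 9.92% were lower and 10.5% higher. iCEC 3 stood apart from iCEC 1 and 2 for several of the 8 genes, and results that turned on it are also given without it or by library.

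The filter on low counts was passed by 6 of the 8 genes, and 2, Loxhd1 and Agbl1, did not pass. Against pNCC, edgeR's quasi-likelihood test with Benjamini-Hochberg adjustment over all tested genes called 1 of the 6 higher and 2 lower in iCEC, where 31.3% of all 16293 genes tested were called. In pCEC it called 3 higher and 2 lower, where 62.5% of 16608 were called, so that a call there is common. Between iCEC and pCEC it called 1 higher and 3 lower in iCEC, where 20.4% of 16278 were called. In bulk libraries, fewer cells of a type and less RNA per cell cannot be told apart.

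**Figure D1:**
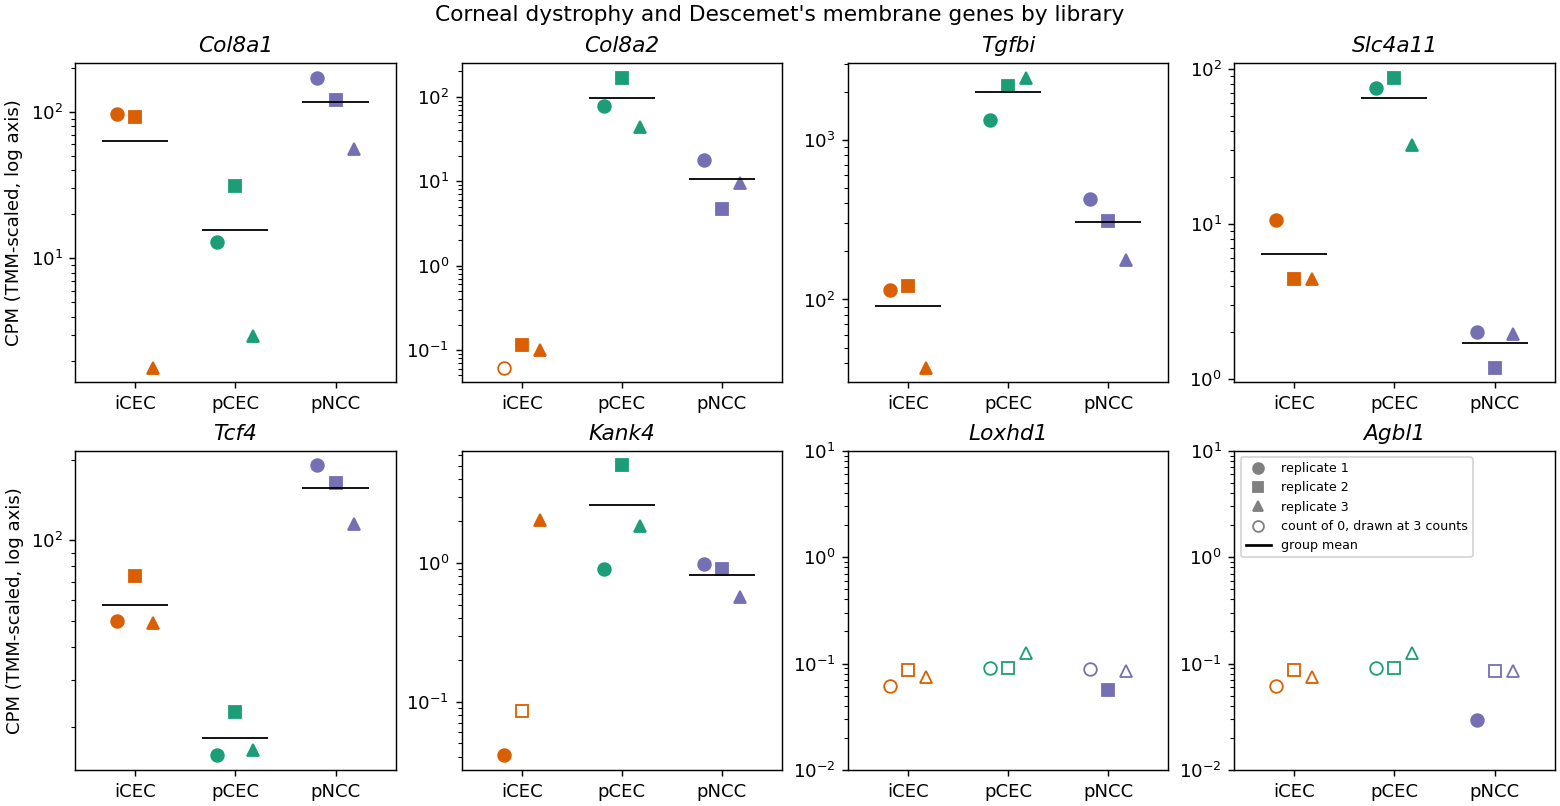
TMM-scaled CPM on a log axis for each of the 8 genes in the 3 iCEC, 3 pCEC and 3 pNCC libraries. Filled symbols are libraries, open symbols are counts of 0 drawn at the CPM of 3 counts, and black lines are group means where no library is at 0; Col8a1 in iCEC 3 lies far below iCEC 1 and 2, and Kank4 in iCEC far above them in iCEC 3 alone.

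The type VIII collagen chains went separate ways. Col8a2 was nearly absent from iCEC and most abundant in pCEC, while Col8a1 was most abundant in pNCC, lower in pCEC and widely spread in iCEC. Both genes are shown first by the 300 bases around their start sites (250 before to 50 after, RefSeq on build GRCm38.p6, which is the mm10 sequence), because the pair encodes subunits of a single lattice yet moved in opposite directions in pCEC. Capitals mark CAGGTG or its reverse complement, the E-box core that the mesenchymal repressor Zeb1 is known to bind, and CAGACA or its reverse complement, a Smad box; CACCTG is the first motif read on the other strand.
Col8a1, chr16:57754688-57754987, minus strand: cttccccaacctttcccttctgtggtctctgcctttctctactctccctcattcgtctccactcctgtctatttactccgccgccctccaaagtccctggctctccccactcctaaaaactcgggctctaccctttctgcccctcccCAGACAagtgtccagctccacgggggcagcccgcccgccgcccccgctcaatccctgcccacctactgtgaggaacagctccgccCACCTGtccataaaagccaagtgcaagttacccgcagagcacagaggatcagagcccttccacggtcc
Col8a2, chr4:126286544-126286843, plus strand: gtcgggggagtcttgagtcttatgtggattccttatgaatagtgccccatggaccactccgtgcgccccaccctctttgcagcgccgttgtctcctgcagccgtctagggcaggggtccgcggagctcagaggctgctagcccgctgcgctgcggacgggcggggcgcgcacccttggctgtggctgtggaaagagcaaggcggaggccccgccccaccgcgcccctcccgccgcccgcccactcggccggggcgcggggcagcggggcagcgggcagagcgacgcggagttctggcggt

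The Col8a1 window holds 1 CAGGTG, starting 18 bases before the start site, and 1 CAGACA, starting 103 bases before it. The Col8a2 window holds neither, nor any CANNTG, the general E-box. Of 32851 such windows in RefSeq, searched on both strands, 20.2% hold CAGGTG, 72.3% hold CANNTG, which includes every CAGGTG, and 21% hold CAGACA. The windows also differ in base composition, with 12 CpG and 60.3% G and C in Col8a1 and 32 CpG and 71.7% G and C in Col8a2. Windows were found for 5 of the 8 genes, and those of Tgfbi, Kank4 and Agbl1 held no CAGGTG and no CAGACA. The Tgfbi window, like that of Col8a2, held no CANNTG either, while those of Kank4 and Agbl1 held 3 each. A match is a sequence description, not a site of binding.

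Col8a2, the alpha-2 chain, had counts of 0, 4 and 4 in iCEC 1, 2 and 3, that is 0, 0.115 and 0.0994 CPM. In pCEC 1, 2 and 3 it stood at 77.2, 168 and 43.2 CPM, and in pNCC 1, 2 and 3 at 17.6, 4.72 and 9.55 CPM. No group overlapped another, and every iCEC library was at or close to the floor of 3 counts. The fitted log2 fold change was -7.18 ± 1.13 in iCEC over pNCC (SE, adjusted p = 0.00609), 3.15 ± 0.644 in pCEC over pNCC (adjusted p = 0.00448) and -10.36 ± 1.04 in iCEC over pCEC (adjusted p = 0.00286), all by edgeR. Without iCEC 1, the library at 0, the first was -6.56 and the third -9.69; without pCEC 2, the highest library, the second was 2.52 and the third -9.68. The order of levels was thus pCEC, pNCC, iCEC, with each neighbouring pair past the threshold.

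Col8a1, the alpha-1 chain, which vessels and other tissues also make, stood at 97.3, 92.2 and 1.79 CPM in iCEC 1, 2 and 3. In pCEC 1, 2 and 3 it stood at 12.9, 31.2 and 2.94 CPM, and in pNCC 1, 2 and 3 at 171, 121 and 55.7 CPM. iCEC 1 and 2 lay between pNCC 3 and pNCC 2, whereas iCEC 3 was 54.3-fold below iCEC 1 and below every pCEC library. The fall in pCEC relative to pNCC was called at a log2 fold change of -2.91 ± 0.806 (SE, edgeR adjusted p = 0.0167). It was -3.85 without pCEC 2, and the call was lost without pCEC 1 (adjusted p = 0.0536), without a filter on low counts (0.107) and in a joint fit of all 9 libraries (0.0944). iCEC did not differ past the threshold from pNCC (log2 fold change -0.83 ± 1.18, edgeR adjusted p = 0.634) or from pCEC (2.05 ± 1.35, edgeR adjusted p = 0.328). Without iCEC 3 these were -0.29 (adjusted p = 0.637) and 2.66 (adjusted p = 0.0736). The order of mean levels was pNCC, iCEC, pCEC, and neither neighbouring pair differed beyond its spread.

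Per kb of exon, the balance of the chains was reversed in pCEC. Col8a1 made up 100%, 99.8% and 91.2% of the summed chains in iCEC 1, 2 and 3. It made up 8.72%, 9.60% and 3.75% in pCEC 1, 2 and 3, and 84.8%, 93.6% and 77.0% in pNCC 1, 2 and 3. The pCEC range lay far below both others, while iCEC 3 fell within the pNCC range. The mean share was 97.0% ± 5.04 in iCEC, 7.36% ± 3.15 in pCEC and 85.1% ± 8.34 in pNCC (SD, n = 3). A 2-sided exact permutation test gave p = 0.1 for pCEC against pNCC and for iCEC against pCEC, the smallest value that 3 against 3 libraries allow, and p = 0.2 for iCEC against pNCC. The summed level of both chains was 12.4, 11.8 and 0.251 CPM per kb in iCEC 1, 2 and 3, 18.8, 41.5 and 9.99 in pCEC 1, 2 and 3, and 25.8, 16.5 and 9.23 in pNCC 1, 2 and 3. iCEC 3 therefore held little transcript of either chain. Col10a1, the closest relative of both chains and a collagen of growth cartilage, was near 0 throughout, with 11 counts in iCEC, 7 in pCEC and 8 in pNCC over 3 libraries each.

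**Figure D2:**
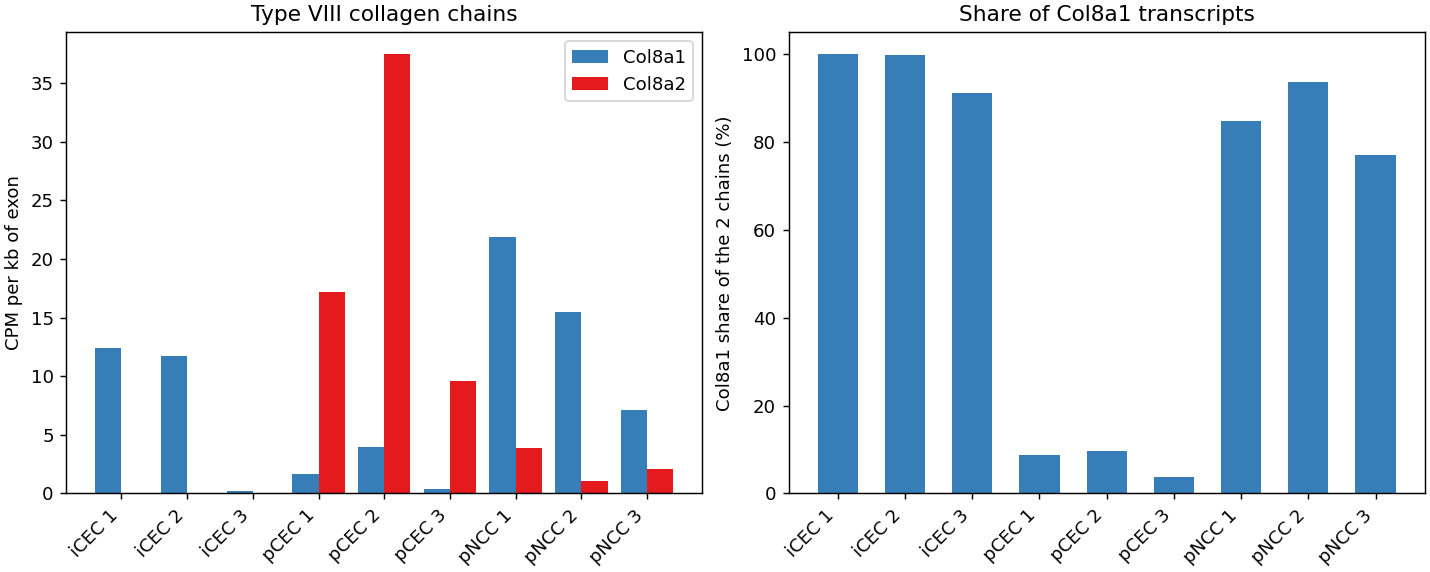
CPM per kb of exon for Col8a1 and Col8a2 (left) and the percentage of Col8a1 in the sum of both (right) in each of the 9 libraries. Col8a2 bars exceed Col8a1 bars in the 3 pCEC libraries, where the Col8a1 share is at most 9.60%, and not in the other 6.

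Tgfbi, a secreted matrix protein abundant in the cornea and named for its induction by TGF-β, had the highest level of the 8 genes per kb of exon in every group. It reached 24.1 ± 12.3 CPM per kb in iCEC, 529 ± 156 in pCEC and 80.6 ± 33.2 in pNCC (SD, n = 3). By library it stood at 114, 121 and 37.3 CPM in iCEC 1, 2 and 3, at 1334, 2191 and 2456 CPM in pCEC 1, 2 and 3, and at 427, 308 and 177 CPM in pNCC 1, 2 and 3. The groups did not overlap, and all 3 iCEC libraries lay below all pNCC libraries. The gene was higher in pCEC than in pNCC by a log2 fold change of 2.68 ± 0.370 (SE, edgeR adjusted p = 0.00067) and lower in iCEC than in pCEC by -4.41 ± 0.533 (edgeR adjusted p = 0.00468). Between iCEC and pNCC the log2 fold change of -1.71 ± 0.533 missed the threshold (edgeR adjusted p = 0.0542). It passed with DESeq2 size factors (adjusted p = 0.0471), the DESeq2 Wald test (0.00581), a joint fit of all 9 libraries (0.0258) or without iCEC 3 (0.0307), and over all alternatives the adjusted p ran from 0.00581 to 0.162. Surface epithelium markers were also highest in pCEC, and their part in this difference was not tested. Postn, the nearest relative of Tgfbi and a matrix protein of mesenchyme, went the other way in pCEC, with 5.91 ± 3.56 CPM against 5263 ± 1439 CPM in pNCC (SD, n = 3, log2 fold change -9.83, edgeR adjusted p = 1.75e-05). In iCEC 1, 2 and 3 Postn stood at 48.2, 72.9 and 1350 CPM, so that iCEC 3 was high for Postn and low for Tgfbi; against pNCC the gene did not pass in iCEC (edgeR adjusted p = 0.106).

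Slc4a11, a membrane transporter of protons and water equivalents whose loss swells the cornea, was higher in both iCEC and pCEC than in pNCC. It stood at 10.5, 4.38 and 4.42 CPM in iCEC 1, 2 and 3, at 75.1, 88.0 and 32.4 CPM in pCEC 1, 2 and 3, and at 2.02, 1.18 and 1.94 CPM in pNCC 1, 2 and 3. The lowest pCEC library was above the highest iCEC library, which was above every pNCC library. The log2 fold change was 5.23 ± 0.463 in pCEC over pNCC (SE, edgeR adjusted p = 8.59e-05) and -3.28 ± 0.540 in iCEC over pCEC (edgeR adjusted p = 0.0106). In iCEC over pNCC it was 1.94 ± 0.513 (edgeR adjusted p = 0.0323). Leaving out single libraries ended that call in 4 cases, with adjusted p = 0.1 without pNCC 1, 0.139 without pNCC 2, 0.107 without pNCC 3 and 0.0678 without iCEC 1. The order of levels was pCEC, iCEC, pNCC.

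Of 21 listed relatives of the 8 genes, 15 were tested in iCEC against pNCC, with 3 higher and 4 lower (16.1% and 15.1% of all genes). In pCEC against pNCC 16 were tested, with 4 higher and 9 lower (30.3% and 32.2% of all), and in iCEC against pCEC 16, with 3 higher and 0 lower (10.5% and 9.92% of all). Of the relatives of Slc4a11 in the bicarbonate transporter family, Slc4a5, Slc4a9, Slc4a1 and Slc4a10 averaged under 1 CPM in every group. The first 3 had the order of Slc4a11, pCEC, iCEC, pNCC. Slc4a5 stood at 0.093 CPM in iCEC, 0.877 in pCEC and 0.0583 in pNCC. Slc4a9 stood at 0.329 in iCEC, 0.840 in pCEC and 0 in pNCC. Slc4a1 stood at 0.0191 in iCEC, 0.180 in pCEC and 0 in pNCC. Slc4a10 had the reverse order, at 0.0468 CPM in iCEC, 0 in pCEC and 0.175 in pNCC. Such orders can rest on few counts: Slc4a5 had 10 in iCEC and 6 in pNCC, and Slc4a1 had 2 and 0. The more abundant Slc4a2, Slc4a3, Slc4a4, Slc4a7 and Slc4a8 had their lowest mean in pCEC. The anion exchanger Slc4a2 averaged 132 ± 33.5 CPM in iCEC, 89.4 ± 20.1 CPM in pCEC and 140 ± 17.3 CPM in pNCC (SD, n = 3), and fell in pCEC relative to pNCC (log2 fold change -0.68, edgeR adjusted p = 0.0126). Slc4a4, the sodium bicarbonate cotransporter of the endothelial pump, averaged 21.9 ± 22.9 CPM in iCEC, 12.96 ± 7.63 CPM in pCEC and 20.2 ± 8.25 CPM in pNCC and passed in none of the 3 comparisons. Slc4a7, another bicarbonate cotransporter, was higher in iCEC than in pCEC (45.004 ± 8.35 CPM against 22.4 ± 6.89 CPM, log2 fold change 1.08, edgeR adjusted p = 0.0459), opposite in sign to Slc4a11.

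Tcf4, an E-protein transcription factor whose human gene carries the repeat expansion found in most Fuchs dystrophy patients, was lower in both iCEC and pCEC. It stood at 49.8, 73.3 and 49.2 CPM in iCEC 1, 2 and 3, at 15.7, 22.8 and 16.4 CPM in pCEC 1, 2 and 3, and at 191, 163 and 115 CPM in pNCC 1, 2 and 3. The groups did not overlap and the order was pNCC, iCEC, pCEC. The log2 fold change was -1.41 ± 0.269 in iCEC over pNCC (SE, edgeR adjusted p = 0.0114), -3.12 ± 0.235 in pCEC over pNCC (edgeR adjusted p = 3.3e-05) and 1.71 ± 0.247 in iCEC over pCEC (edgeR adjusted p = 0.00705). Leaving out pNCC 2 ended the first call (adjusted p = 0.0504). The counts are per gene, and cannot tell apart the 62 transcripts that GENCODE M21 gives for it. The other E-proteins were also lower in pCEC than in pNCC: Tcf12 averaged 93.3 ± 11.3 CPM against 212 ± 24.5 CPM (log2 fold change -1.20, edgeR adjusted p = 0.000423) and Tcf3 averaged 111 ± 13.3 CPM against 173 ± 11.8 CPM (log2 fold change -0.67, edgeR adjusted p = 0.00225). In iCEC Tcf12 averaged 113 ± 17.6 CPM and was lower than in pNCC (log2 fold change -0.87, edgeR adjusted p = 0.0159), and Tcf3 averaged 94.2 ± 34.3 CPM and missed the threshold (log2 fold change -0.85, edgeR adjusted p = 0.0628).

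**Figure D3:**
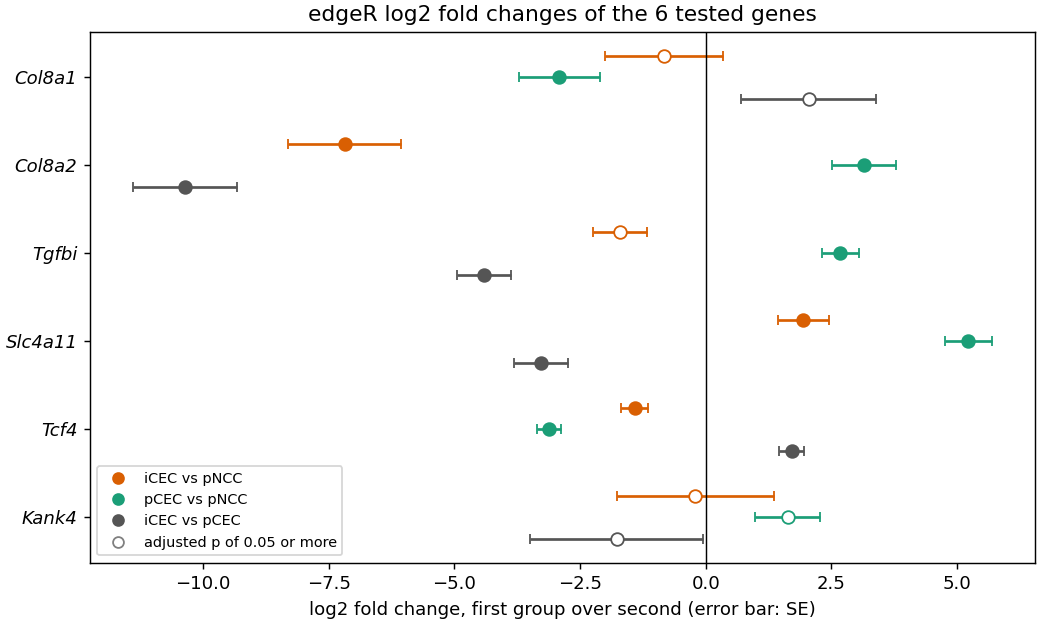
Fitted edgeR log2 fold changes of the 6 tested genes, with SE, for iCEC over pNCC, pCEC over pNCC and iCEC over pCEC. Filled points passed an adjusted p of 0.05; Col8a2 and Tgfbi lie on opposite sides of 0 for the first pair of comparisons, Slc4a11 lies to the right and Tcf4 to the left in both of these.

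Kank4, a scaffold protein that joins focal adhesions to microtubules, was low everywhere and turned on single libraries. It had 2, 0 and 82 counts in iCEC 1, 2 and 3, which is 0.041, 0 and 2.04 CPM. In pCEC 1, 2 and 3 it stood at 0.898, 5.07 and 1.85 CPM, and in pNCC 1, 2 and 3 at 0.979, 0.899 and 0.572 CPM. iCEC 3 thus lay within the pCEC range, and iCEC 1 and 2 at or below the floor. None of the 3 comparisons passed by edgeR, with log2 fold changes of -0.20 ± 1.56 in iCEC over pNCC (adjusted p = 0.933), 1.63 ± 0.644 in pCEC over pNCC (adjusted p = 0.06) and -1.77 ± 1.71 in iCEC over pCEC (adjusted p = 0.506). Without iCEC 3 the gene was called lower in iCEC than in pNCC (-4.95, adjusted p = 0.0109) and than in pCEC (-6.54, adjusted p = 0.0144). Without pCEC 1 it was called higher in pCEC than in pNCC (2.09, adjusted p = 0.0135), as it was by the DESeq2 Wald test (adjusted p = 0.0221) and with no filter (0.0443), while with the polyA pCEC library alone the log2 fold change was 0.13.

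The relatives of Kank4 were more abundant. Kank1, found in many epithelia, averaged 71.4 ± 14.0 CPM in iCEC, 73.6 ± 6.83 CPM in pCEC and 22.006 ± 1.24 CPM in pNCC (SD, n = 3), and was called higher than in pNCC in iCEC (log2 fold change 1.73, edgeR adjusted p = 0.00234) and in pCEC (1.71, edgeR adjusted p = 1.88e-05). Kank2, found in mesenchyme, averaged 27.1 ± 9.87 CPM in iCEC, 7.58 ± 2.89 CPM in pCEC and 169 ± 8.94 CPM in pNCC and was called lower than in pNCC in both (log2 fold changes -2.61 in iCEC and -4.52 in pCEC). Kank3 stood at 30.8, 10.9 and 7.11 CPM in iCEC 1, 2 and 3, and was higher there than in pNCC, at 2.82 ± 0.202 CPM (log2 fold change 2.56, edgeR adjusted p = 0.0216).

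Loxhd1, which in the inner ear keeps hair cells working, and Agbl1, an enzyme that trims glutamate chains from proteins, were not detectable at this depth. Loxhd1 had 2 counts, both in pNCC 2, and Agbl1 had 1, in pNCC 1. In the 6 iCEC and pCEC libraries both had counts of 0, which allows up to 0.0615 to 0.126 CPM (3 counts, for counting error only). No fold can be given. About 20.1% of the exon length of Agbl1 overlaps a gene model on the opposite strand, and the sources used here do not state whether counting used strand. Other members of the deglutamylase family varied. Agbl4 was nearly absent too, with 0 counts in iCEC, 1 in pCEC and 2 in pNCC. Agbl2 had 2 counts in iCEC, 57 in pCEC and 367 in pNCC. Agtpbp1 averaged 16.1 ± 2.76 CPM in iCEC, 11.4 ± 1.52 CPM in pCEC and 39.5 ± 2.38 CPM in pNCC. It was lower in both iCEC and pCEC than in pNCC (log2 fold changes -1.26 in iCEC and -1.81 in pCEC, edgeR adjusted p = 0.00548 and 5.23e-05). Agbl5 was higher in both, with 18.6 ± 1.88 CPM in iCEC, 21.9 ± 3.48 CPM in pCEC and 6.38 ± 1.66 CPM in pNCC (log2 fold changes 1.57 and 1.75, edgeR adjusted p = 0.00952 and 0.00057).

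Compared per kb of exon within a group, the order of the mean levels of the 6 detected genes was Tgfbi, Col8a1, Tcf4, Slc4a11, Kank4 and Col8a2 in iCEC. In pCEC it was Tgfbi, Col8a2, Slc4a11, Col8a1, Tcf4 and Kank4, and in pNCC it was Tgfbi, Col8a1, Tcf4, Col8a2, Slc4a11 and Kank4. The pNCC order held in each library, but those of iCEC and pCEC did not. In iCEC 3, Col8a1 (0.228 CPM per kb) lay below Tcf4 (1.80), Slc4a11 (0.885) and Kank4 (0.425). The place of Kank4 above Col8a2 in iCEC rested on iCEC 3: in iCEC 1 and 2 Kank4 stood at 0.00855 and 0 CPM per kb and Col8a2 at 0 and 0.0255, all from 4 counts or fewer, so these 2 genes could not be ordered without iCEC 3. In pCEC the last 3 places varied by library, with Kank4 above Tcf4 in pCEC 2 and both above Col8a1 in pCEC 3. Col8a2 averaged 0.0159 ± 0.0139 CPM per kb in iCEC and was the second highest in pCEC at 21.4 ± 14.4 CPM per kb. Dividing by the longest transcript in place of all exons raised Tcf4 in pNCC from 5.71 to 18.2 CPM per kb and left the order of the means the same.

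Within pCEC, Col8a1, Col8a2 and Slc4a11 had their lowest value in pCEC 3, whereas Tcf4, Kank4 and Tgfbi had theirs in pCEC 1. All of them except Tgfbi, which was highest in pCEC 3, were highest in pCEC 2. The summed surface epithelium markers were 66800, 89979 and 94873 CPM in pCEC 1, 2 and 3, and the summed keratocyte and fibroblast markers 1316, 10874 and 6655 CPM; their part in the spread between pCEC libraries was not tested. With pCEC represented by the polyA library alone, the 5 genes called against pNCC kept their direction. Their log2 fold changes were 2.85 for Col8a2, -3.18 for Col8a1, 2.12 for Tgfbi, 5.44 for Slc4a11 and -3.33 for Tcf4. In that fit the lone library was assumed to vary like pNCC. Set against that library alone, iCEC had log2 fold changes of -10.02 for Col8a2, -3.84 for Tgfbi, -3.49 for Slc4a11 and 1.92 for Tcf4. With 1 library pCEC has no spread of its own, so whether a call passed in these fits says little about the genes.

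Beyond the type VIII chains, components of Descemet's membrane and other basement membranes were more often called lower than higher against pNCC. Of 20 genes listed, 18 were tested against pNCC in each group: 3 rose, 9 fell and 6 did not pass in iCEC, where 16.1% of all tested genes rose and 15.1% fell, and 3 rose, 12 fell and 3 did not pass in pCEC, where 30.3% rose and 32.2% fell. The median log2 fold change was -2.87 in iCEC and -2.80 in pCEC, against 0.05 and -0.01 over all tested genes. Lama5, the laminin chain of epithelial basement membranes, rose in both groups, to 508 ± 128 CPM in iCEC and 330 ± 43.2 CPM in pCEC, against 6.32 ± 0.149 CPM in pNCC (SD, n = 3, edgeR adjusted p = 0.000241 and 8.64e-07). Lama4, the chain of mesenchymal and vessel basement membranes, fell to 11.4 ± 10.995 CPM in iCEC and 0.497 ± 0.423 CPM in pCEC, against 471 ± 50.6 CPM in pNCC (edgeR adjusted p = 0.00529 and 1.15e-05). The collagen-binding protein Sparc fell to 133 ± 57.8 CPM in iCEC, against 4215 ± 637 CPM in pNCC (edgeR adjusted p = 0.00106). In pCEC Sparc averaged 792 ± 547 CPM, and its highest library, at 1314 CPM, was also below the lowest of pNCC, at 3823.5 CPM. Collagen IV chains did not move alike: Col4a1 fell to 71.8 ± 29.1 CPM in iCEC and 29.7 ± 24.3 CPM in pCEC, against 868 ± 106 CPM in pNCC, while Col4a6 rose to 54.4 ± 30.5 CPM in iCEC and 11.2 ± 6.78 CPM in pCEC, against 0.954 ± 0.259 CPM in pNCC.

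Between iCEC and pCEC, 4 of 19 tested membrane components were higher in iCEC, 2 were lower and 13 did not pass, where 10.5% of all genes were higher and 9.92% lower. Col18a1, the collagen that releases endostatin, averaged 269 ± 97.1 CPM in iCEC, against 2.72 ± 2.26 CPM for pCEC (log2 fold change 6.70, edgeR adjusted p = 0.00581). Col4a5 averaged 167 ± 21.2 CPM in iCEC, against 54.6 ± 23.9 CPM for pCEC (log2 fold change 1.68, edgeR adjusted p = 0.0175). Col4a3 and Col4a4, whose chains join that of Col4a5 in Descemet's membrane, did not pass (edgeR adjusted p = 0.0625 and 0.0877): Col4a3 stood at 0.082, 0.344 and 0.621 CPM in iCEC 1, 2 and 3 and at 26.3, 36.4 and 0.168 CPM in pCEC 1, 2 and 3. pCEC 3 was again the low library, at the level of iCEC.

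**Figure D4:**
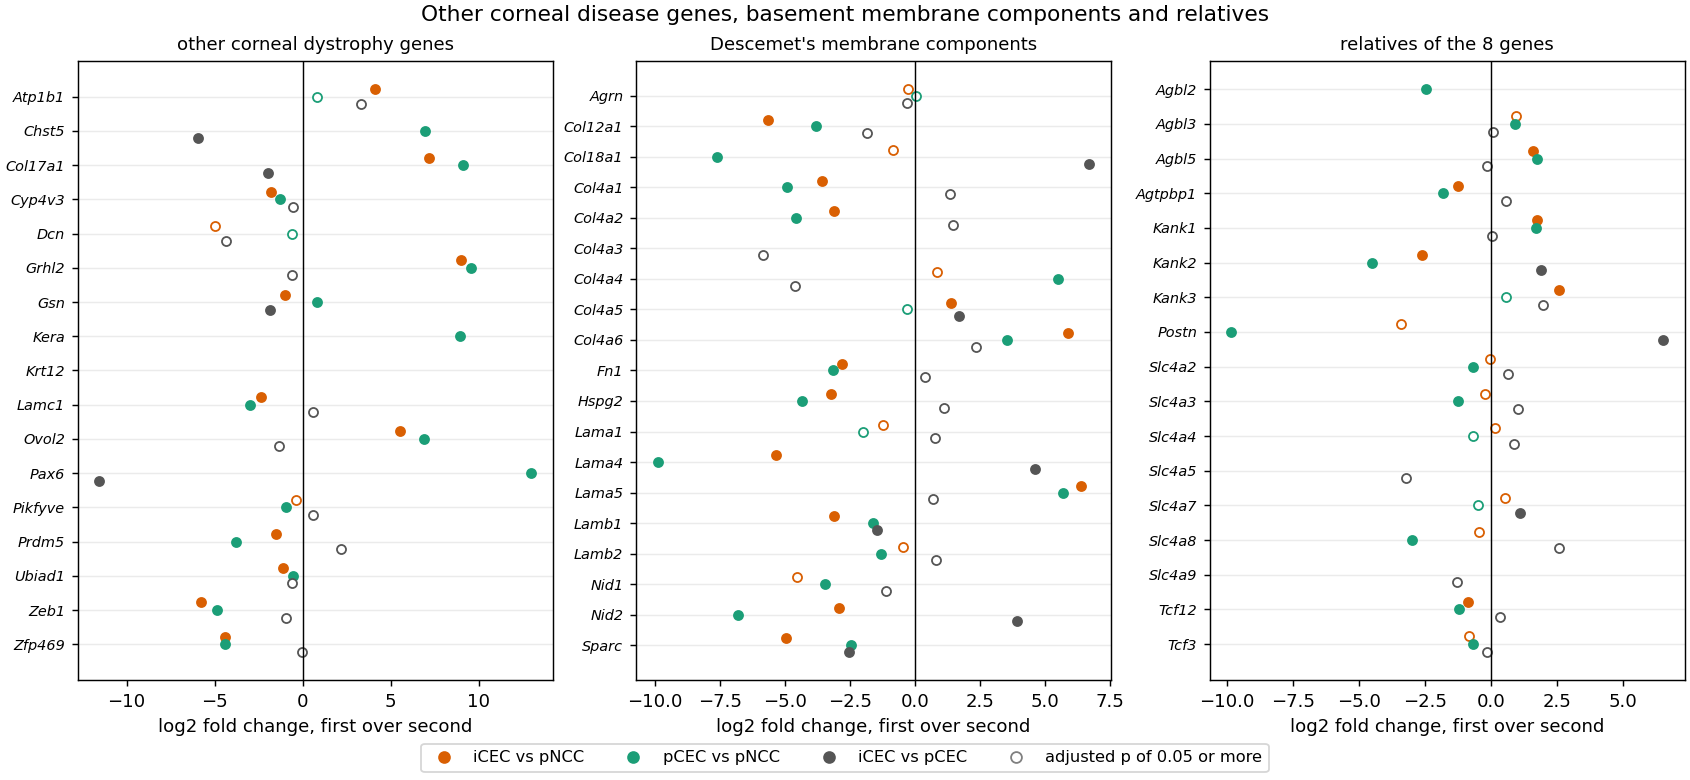
Fitted edgeR log2 fold changes of other corneal dystrophy genes (left), Descemet's membrane components (middle) and relatives of the 8 genes (right) for iCEC over pNCC, pCEC over pNCC and iCEC over pCEC; filled points passed an adjusted p of 0.05. Comparisons in which a group had 3 counts or fewer in all are not drawn; against pNCC, 9 membrane components in iCEC and 12 in pCEC passed to the left of 0, and Lama5 and Col4a6 to the right in both.

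Other genes behind corneal disease in people moved in both directions. Of 20 listed, 14 were tested in iCEC against pNCC: 5 rose, 7 fell and 2 did not pass, against the same shares of 16.1% and 15.1% over all genes. Of 18 tested in pCEC against pNCC, 9 rose, 7 fell and 2 did not pass, against 30.3% and 32.2%. Col17a1 rose in both groups. It encodes the hemidesmosomal collagen altered in recurrent erosion dystrophy and reached 1227 ± 193 CPM in iCEC and 4987 ± 1200.3 CPM in pCEC, against 8.73 ± 4.54 CPM in pNCC (SD, n = 3, edgeR adjusted p = 0.000623 and 1.4e-05). It is itself a product of surface epithelium.

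The transcription factors of posterior polymorphous dystrophy, in which endothelial cells take on epithelial features, also moved in both groups, Grhl2 and Ovol2 up and Zeb1 down. Grhl2, an activator of epithelial genes, averaged 91.3 ± 35.7 CPM in iCEC, 145 ± 3.50 CPM in pCEC and 0.180 ± 0.0963 CPM in pNCC (SD, n = 3), with log2 fold changes against pNCC of 8.98 (edgeR adjusted p = 0.000431) and 9.58 (edgeR adjusted p = 1.04e-06). Ovol2, which represses Zeb1, averaged 4.10 ± 2.66 CPM in iCEC, 10.9 ± 3.48 CPM in pCEC and 0.0853 ± 0.0858 CPM in pNCC (edgeR adjusted p = 0.0142 and 0.000128). Zeb1 averaged 1.91 ± 1.76 CPM in iCEC, 3.76 ± 1.16 CPM in pCEC and 108 ± 11.8 CPM in pNCC, with log2 fold changes of -5.77 (edgeR adjusted p = 0.00314) and -4.87 (edgeR adjusted p = 5.02e-06). None of these 3 differed past the threshold between iCEC and pCEC.

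Between iCEC and pCEC, none of 18 tested disease genes was higher in iCEC and 6 were lower, where 10.5% and 9.92% of all genes were called. Pax6, the eye regulator mutated in aniridia, averaged 0.299 ± 0.387 CPM in iCEC and 895 ± 73.3 CPM in pCEC (edgeR adjusted p = 0.00272). Chst5, a keratan sulfate sulfotransferase of the cornea, averaged 0.349 ± 0.223 CPM in iCEC and 22.7 ± 10.2 CPM in pCEC (edgeR adjusted p = 0.00394), and gelsolin (Gsn), altered in a lattice-type amyloidosis, 393 ± 86.3 CPM in iCEC and 1469 ± 136 CPM in pCEC (edgeR adjusted p = 0.00575). Atp1b1, the sodium pump subunit near a Fuchs risk locus, was higher in iCEC than in pNCC (118 ± 61.5 CPM against 7.03 ± 0.381 CPM, edgeR adjusted p = 0.00176) and in pCEC stood at 12.7 ± 10.7 CPM.

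The genes most like each of the 6 were sought by Pearson correlation of log2 CPM over the 9 libraries, which fall into 3 groups and share them, among genes averaging at least 10 CPM; the values are a description. For Col8a2 they were Crtc1, Nr4a2 and Fech (r = 0.982, 0.982 and 0.981), and for Slc4a11 Rhot2, Parp16 and Atp13a2 (r = 0.987, 0.986 and 0.982). For Tgfbi they were Spg21, Cpxm2 and Anp32a (r = 0.998, 0.992 and 0.987), and for Tcf4 Spidr, Hexa and Mex3b (r = 0.993, 0.985 and 0.984). For Col8a1, whose pattern turned on iCEC 3, they were Tspan6, Ch25h and Nfx1 (r = 0.960, 0.946 and 0.940). For Kank4 they were Tfap2b, Abtb2 and Arhgap39 (r = 0.963, 0.956 and 0.953).

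Tfap2b, a transcription factor of the neural crest and of the corneal endothelium, was chosen by its correlation with Kank4 over these same libraries. It shared the split of Kank4 among the iCEC libraries, a match that this choice favours. It had counts of 0, 0 and 1839 in iCEC 1, 2 and 3, that is 45.7 CPM in iCEC 3, and stood at 18.2, 41.9 and 23.1 CPM in pCEC 1, 2 and 3 and at 5.10, 8.32 and 1.26 CPM in pNCC 1, 2 and 3. Lmx1b, a regulator of the anterior eye chosen after its values were seen, had counts of 0, 0 and 96 in iCEC 1, 2 and 3. It stood at 2.39 CPM in iCEC 3, and at 12.6, 33.6 and 19.5 CPM in pCEC 1, 2 and 3. In pNCC 1, 2 and 3 it stood at 1.13, 0.449 and 1.60 CPM, so that iCEC 3 was nearer to pNCC than to pCEC.

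**Figure D5:**
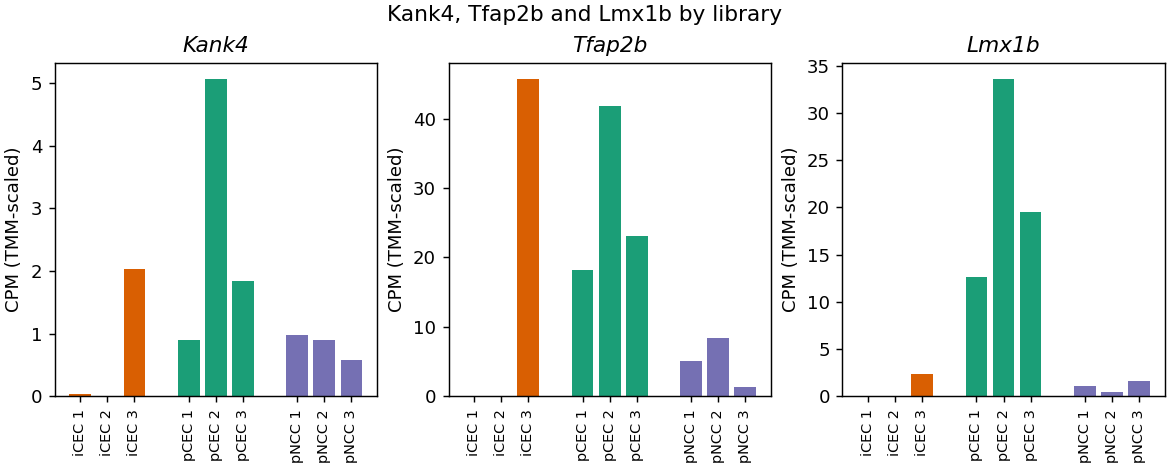
TMM-scaled CPM of Kank4, Tfap2b and Lmx1b in each of the 9 libraries, on linear axes from 0. In iCEC all 3 genes are at or near 0 in libraries 1 and 2 and present in library 3.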

How the data were processed

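The authors deposited a table of raw read counts, 1 column per library and 1 line per symbol; the values are whole numbers. Build mm10 and edgeR are named in the submitters' processing notes without a role; aligner, counting tool, strand setting and annotation are not given in the sources used here. The members and lists were chosen with earlier results of these data known. Genes were kept by filterByExpr and scaled by TMM, and each contrast used its own 6 libraries in a robust quasi-likelihood model (edgeR 4.0.16, R 4.3.3), 2-sided, adjusted over all tested genes, threshold 0.05. SE was taken from the F statistic and the size of the fold change. Alternatives used DESeq2 1.42.0, other filters, other samples and a replicate block. The fit was tested on simulated data. Exon lengths and positions came from GENCODE M21 (same build; all 8 genes matched), promoters from RefSeq. Genes named besides the 8 include up to 4 called genes with the smallest adjusted p per list and comparison. Further ones are the relatives of the 8, and 3 correlated genes for each of the 6 detected ones. Ovol2, Col4a3, Col4a4 and Lmx1b were chosen after their values were seen. So were the markers Krt5, Krt14, Aldh3a1, Col1a1, Col1a2 and Kera. A gene that these rules name is not reported here or drawn. Further work used Python 3.11.15, pandas 2.3.3, scipy 1.17.1 and matplotlib 3.10.9. Replicates of a group differed by far more than counting noise. Intervals and floors cover counting error only.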

Additional observations from a re-analysis of the deposited data

How the results depend on the processing

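Of 226 refitted log2 fold changes of the 6 tested genes, 201 kept their direction and side of the threshold, 13 lost it, 10 gained it and 2 changed sign: Kank4 in iCEC against pNCC, at 0.35 without iCEC 1 and 0.37 without iCEC 2, neither of them called; without iCEC 3 it was called at -4.95. In iCEC against pNCC the member called higher (Slc4a11) was lost with the replicate block, giving 0 calls, and the number ran from 0 to 1 when a library was left out; the number called lower ran from 1 to 4. In pCEC against pNCC the number called lower was 1 with all 9 libraries in one fit and 1 with no filter, and ran from 1 to 2 when a library was left out. With pCEC represented by the polyA library alone, edgeR called 0 genes of any kind between iCEC and pCEC (2529 at an unadjusted p under 0.05), so 0 members were called higher and 0 lower, with log2 fold changes of -10.02 to 1.92 for the 4 lost calls; the cause was not tested. The number of all genes called in iCEC against pNCC was 5093, 2864 with the replicate block and 2322 (without pNCC 2) to 7684 (without iCEC 3) when a library was left out, with 2523 without pNCC 1 and 2698 without pNCC 3. Between iCEC and pCEC it was 3327, 1295 with the replicate block and 1131 (without pCEC 2) to 4974 (without iCEC 3) when a library was left out, with 1353 without pCEC 1 and 1138 without pCEC 3. Same-numbered replicates did not deviate together (correlations from -0.181 to 0.071), so the numbers were not taken as pairs; of the other member calls the block changed that of Tgfbi in iCEC against pNCC, which then passed (adjusted p = 0.0219). Removing a library left the share of Col8a1 between 95.5 and 99.9% in iCEC, 6.24 and 9.16% in pCEC and 80.9 and 89.2% in pNCC. Depth limits Loxhd1 and Agbl1 only to the floor of 3 counts.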
